A study of Mus musculus with 6 samples.

Results

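Of the 104 intervals with ATAC-seq peaks listed for mouse epididymal white adipose tissue, 12 lay within 51.3 kb at the start of chromosome 11. These 12 are described here. They were chosen by their gene name (Sfi1, Gm11400, Eif4enif1 or Fau-ps2) and by a start below position 4000000 on chromosome 11, a rule that contains no measured value. The table named 9 of them for Sfi1 and 1 for each of the other genes, by a nearby start site. The 12 intervals held 51 of the 519 peaks called in the series. ATAC-seq uses a transposase that cuts and tags open DNA, so that sequenced fragments pile up over accessible sites. It was run on 6 libraries, 3 of flox controls, in which Armc5 is flanked by recombination sites and intact, and 3 of adipocyte-specific Armc5 KO, in which adipocytes have lost the gene. The floxed alleles are therefore common to both groups, and the other cell types of the fat pad keep Armc5 in the KO as well. The age and sex of the mice, the Cre driver, and whether the libraries of a group came from separate mice are not given in the sources used here, so p-values measure only the spread between these libraries, which may be technical.

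SFI1 is a centrin-binding protein of the centrosome, known from budding yeast for its part in duplicating the spindle pole body and in mammalian cells for its place at the centriole. EIF4ENIF1, also called 4E-T, carries the cap-binding protein eIF4E into the nucleus and represses and stores mRNA in P-bodies. Fau-ps2 is a processed pseudogene of Fau, which encodes a ubiquitin-like protein fused to a ribosomal protein, and Gm11400 is a predicted pseudogene. In most tissues ATAC-seq peaks mark promoters, which are held open for transcription, and enhancers, many of which lie in introns. Whether the peaks described here mark such sites was not tested.

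All 12 intervals lay inside the RefSeq span of Sfi1 (GRCm38.p6, chromosome 11 from 3131850 to 3203347), whichever gene they were named for. None overlapped Eif4enif1 itself, which begins at 3202343, 2.467 kb beyond the nearest interval. The RefSeq promoter table matched 1 of the 4 gene names, Eif4enif1, with 4 start sites, and no library had a peak in any of these 4 windows. The window of the first start (250 bases before to 50 after) is shown because it is the promoter nearest to the interval that bears the gene's name, 2227 bp away. It is the plus strand of chr11:3202103-3202402 in GRCm38.p6, and capitals mark the match to GGGCGG or its reverse complement CCGCCC.

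Eif4enif1 promoter: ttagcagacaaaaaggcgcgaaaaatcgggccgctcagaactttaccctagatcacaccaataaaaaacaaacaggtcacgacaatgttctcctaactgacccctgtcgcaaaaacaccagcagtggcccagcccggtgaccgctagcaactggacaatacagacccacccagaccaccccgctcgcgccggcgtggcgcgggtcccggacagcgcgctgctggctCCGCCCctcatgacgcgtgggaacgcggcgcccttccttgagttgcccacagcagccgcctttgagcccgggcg

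This window holds 27 CG dinucleotides, more than 84.5% of the 32851 windows in the table, whose median is 7. The motif was searched on both strands, and 35.7% of all windows hold it at least once.

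The 6 libraries had a median summit pileup (the number of fragments over the peak's highest base) of 56 to 90 over the 55 intervals called in all of them. Flox control 3 stood apart. The 4 intervals of the Sfi1 group that it shared with every other library made up 0.605% of its summed pileup over those 55, against 1.04 to 1.15% in the other 5 libraries. Those 4 intervals summed to 70 fragments in flox control 3, within the 66 to 106 of the others. Its total over the 55 was the largest, 11562 fragments against 5909 to 9624. The pileups of flox control 3 differed from those of flox controls 1 and 2 far beyond counting noise (chi-square per degree of freedom 37.3 and 54.7). Flox control 2 differed less from flox control 1 and the Armc5 KO libraries, at 3.09 to 3.91. Flox control 3 had a median pileup of 58 fragments and a narrowest peak of 112 bp, against 86 to 88 bp elsewhere. The counts and differences below are also given without it where it moves them. No gene of the lists for adipocytes, macrophages, endothelium, fibroblasts and progenitors, or epididymal epithelium and mesothelium, 0 of 30, was named or overlapped by an interval, so the tissue could not be checked against its markers. The same held for Armc5 and the sterol regulatory element-binding protein pathway (0 of 14 genes), so the deletion could not be checked either.

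The partners of the named genes were absent from the table too. Of 12 genes for centrins and centrosome proteins linked to SFI1, the centrin genes among them, 0 were named or overlapped by an interval. Of 13 genes for eIF4E and the P-body proteins that act with EIF4ENIF1, 0 were. The next interval on chromosome 11 lay 50.9 Mb further on, and only 15 of the 104 intervals were on this chromosome. Of the protein-coding neighbours, the predicted gene Gm51877 lay 1.668 kb from the nearest interval. Drg1, which encodes a GTP-binding protein, lay 50.031 kb away, the zinc finger gene Patz1 89.255 kb, Pik3ip1, an inhibitor of phosphoinositide 3-kinase, 119.365 kb, the LIM kinase gene Limk2 143.421 kb and the ubiquitin ligase gene Rnf185 216.097 kb.

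The 12 intervals fell into a body group and a start group, 19.8 kb apart. The table's annotation numbers the introns of the Sfi1 transcript ENSMUST00000081318.12 from 14 down to 6 with rising position, so this transcript is read towards lower positions and starts at the higher end. Of the 12, 8 lay in the gene body between 3148598 and 3173268, and 4 between 3193060 and 3199875, around and upstream of that start. The Sfi1 start named below is the start of this transcript. The RefSeq span of Sfi1 runs on past all 4, to 3203347. Together the 12 covered 3002 bases, 5.85% of the span. The 8 body intervals comprised intron 14 (3148598 to 3148845), the Gm11400 interval (3154919 to 3155224), intron 10 (3158484 to 3158796), intron 9 (3161734 to 3162054), 2 in intron 7 (3166990 to 3167287 and 3169435 to 3169659) and 2 in intron 6 (3172420 to 3172685 and 3172891 to 3173268), out of 32 introns. Where 1 intron held 2 intervals, they are called far and near by their distance from the Sfi1 start. The 7 body intervals named for Sfi1 lay 1157 to 5957 bp from the Sfi1 start site that named them, which is therefore not the start at the promoter interval. The interval named Gm11400 was annotated to intron 3 of 3 of another protein-coding transcript, lay 4116 bp upstream of the Gm11400 start and did not overlap that pseudogene.

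The start group held the Sfi1 promoter interval (3193276 to 3193504, its centre 17 bp from the start site) and, 91 bp away, an interval at the end of an antisense transcript (3193060 to 3193184). Upstream of this start, but inside the RefSeq span of Sfi1, were the Fau-ps2 interval (3196557 to 3196754) and the Eif4enif1 interval (3199781 to 3199875). The Fau-ps2 interval was annotated to the single exon of that pseudogene. It overlapped the RefSeq span of Fau-ps2, which ends at 3196727, but its summit lay outside that span, at 3196733. The Eif4enif1 interval was in intron 2 of 3 of a protein-coding transcript, 2564 bp before the Eif4enif1 start.

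The body intervals were called in most libraries, and 3 of the 4 start intervals in 1 or 2. Intron 14, intron 9, near intron 6 and the promoter had a peak in all 6 libraries. Gm11400, intron 10 and far intron 6 had one in 5, all but flox control 3. Both intron 7 intervals had one in 4, all but flox control 3 and Armc5 KO 3. The antisense interval had one in flox controls 1 and 2, the Eif4enif1 interval in flox control 1 and the Fau-ps2 interval in Armc5 KO 2.

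**Figure D1:**
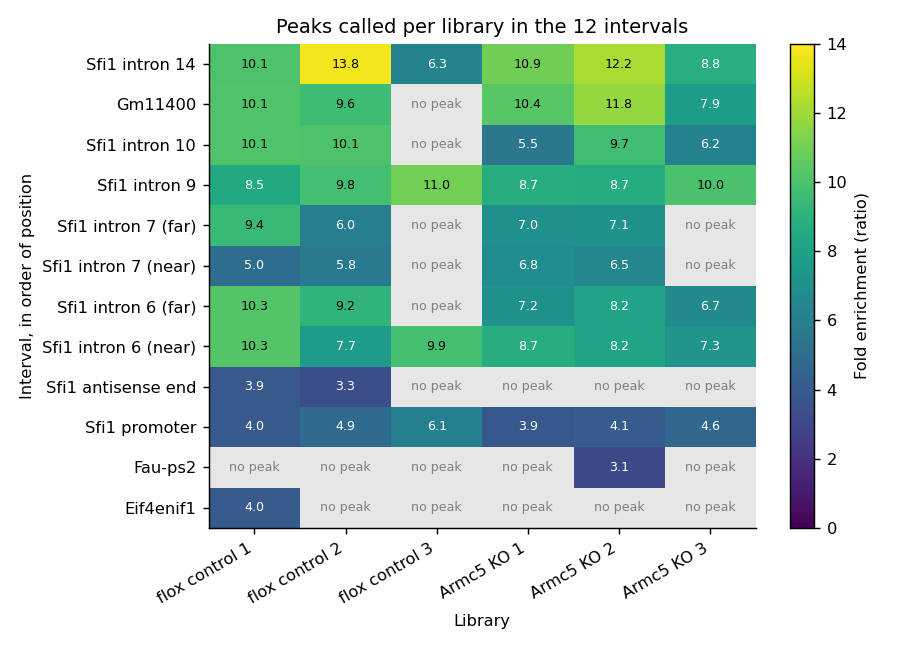
Fold enrichment (authors' ratio, colour and number) of the peak in each of the 12 intervals (vertical axis, in order of position) and each library (horizontal axis); grey cells had no peak. Flox control 3 lacked 8 of the 12, and the Sfi1 promoter had a peak in all 6 libraries.

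Of the 12 intervals, 11, 10 and 4 had a peak in flox controls 1, 2 and 3, on average 8.33 ± 3.79 (SD, n = 3). The Armc5 KO libraries 1, 2 and 3 had peaks in 9, 10 and 7, on average 8.67 ± 1.53 (SD, n = 3). The groups overlapped, and their difference of 0.333 did not exceed the spread among replicates. Without flox control 3 it became -1.83. No test was made, since the 12 intervals share 1 locus and 3 libraries against 3 allow no exact permutation p under 0.1. In bulk tissue, fewer cells of a type and less accessible chromatin per cell cannot be told apart. Flox controls 1 and 2 and Armc5 KO 2, with median pileups of 85, 90 and 74, had 10 or 11 intervals, and Armc5 KO 1 and 3, with 56 each, had 9 and 7. Flox control 3 went against this order, with 4 intervals at a median pileup of 58. The part of depth in this was not tested.

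Of the 12 intervals, 9 had a peak in both groups, and 3 in 1 group only, against 12 of all 104 (11.5%). The antisense and Eif4enif1 intervals were found in flox controls only, as were 8.65% of all intervals, and the Fau-ps2 interval in Armc5 KO only, as were 2.88%. The antisense peaks had a fold enrichment of 3.93 and 3.34 in flox controls 1 and 2, the Eif4enif1 peak 4.01 and the Fau-ps2 peak 3.11. With at least 2 libraries of a group required, the antisense interval was the 1 left in 1 group only.

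Of the 92 intervals elsewhere, flox control 3 had 60 (65.2%), against 4 of 12 here (33.3%); the other libraries had 73.9 to 94.6% of those 92. Of the 8 it lacked here, 6 had a peak of at least 112 bp, its own narrowest width, in another library. Elsewhere flox control 3 lacked 32, of which 22 had such a peak. In the other 5 libraries the median pileup was 15 fragments at the intervals it lacked here and 15.5 at those it had, while elsewhere these values were 23 and 66. With flox control 3 left out, 7 of the 12 had a peak in every library, in place of 4.

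Fold enrichment was higher in the gene body than at the Sfi1 start, and the pileup was lower. Fold enrichment is the authors' ratio of summit pileup to the background expected there, set within each library and taken as (pileup + 1)/(background + 1). The pileup and background were solved from this fold and the deposited p-value. On backgrounds of at most 1.31, as in the body, the added 1 is a large part of the denominator. The fold there is well below the plain ratio and depends largely on the pileup. The part of library depth in the body folds was not tested. Over the 8 body intervals the peaks (41 in all) had a median fold of 8.71 (4.99 to 13.8), a median pileup of 13 fragments (6 to 21) and a median background of 0.642 fragments (0.096 to 1.31). Over the 4 start intervals the 10 peaks had a median fold of 4.01 (3.11 to 6.06), a pileup of 37.5 (22 to 59) and a background of 9.47 (4.73 to 11.8). The ranges of pileup and of background did not overlap between the groups of intervals. These groups were formed after the values were seen and are a description with no test.

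**Figure D2:**
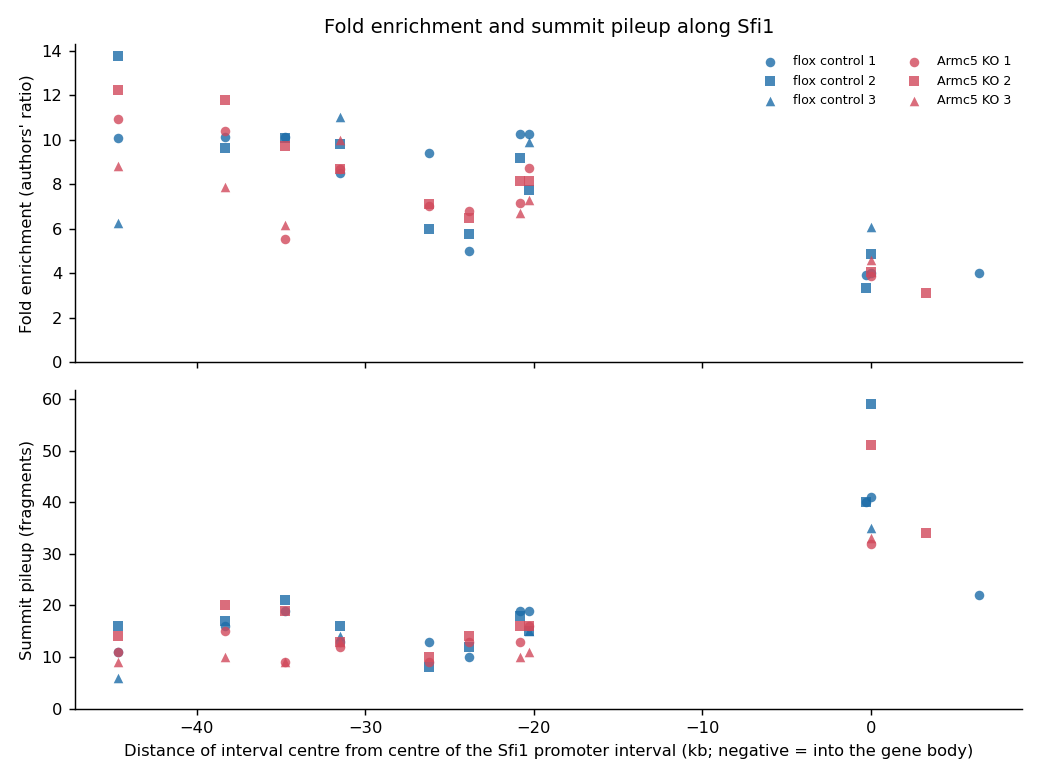
Fold enrichment (upper panel, ratio) and summit pileup (lower panel, fragments) of every peak against the distance in kb of its interval from the Sfi1 promoter interval, negative values pointing into the gene; colour shows the group and symbol the library number. Fold is higher in the body (4.99 to 13.8) than at the start (3.11 to 6.06), and pileup is lower (6 to 21 against 22 to 59 fragments).

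At the Sfi1 promoter the fold enrichment was 4.002, 4.88 and 6.06 in flox controls 1, 2 and 3 and 3.86, 4.07 and 4.62 in Armc5 KO 1, 2 and 3. The highest value was that of flox control 3, and the groups overlapped. At its summit, 41, 59 and 35 fragments piled up in the flox libraries and 32, 51 and 33 in the KO libraries, with backgrounds of 9.49, 11.3, 4.94, 7.55, 11.8 and 6.36 fragments in the same order. Flox control 3 had the lowest background and a pileup close to those of Armc5 KO 1 and 3. Relative to the median of its library over the 55 common intervals, the promoter's pileup was 0.482 to 0.689. Ranked by fold it was 88th of the 94 intervals of flox control 1 and 81st of the 88 of Armc5 KO 2, and ranked by pileup it was 45th and 36th.

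The other 3 start intervals had lower pileups than the promoter of the same library. The antisense interval had 40 fragments in each of flox controls 1 and 2, against 41 and 59 at the promoter, on backgrounds of 9.45 and 11.3. The Fau-ps2 peak of Armc5 KO 2 had 34 fragments against 51, on a background of 10.2. The Eif4enif1 peak of flox control 1 had 22 against 41, on a background of 4.73. The table gives no pileup for a library without a peak, so it does not show how many fragments the other libraries had there.

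In intron 14, the interval farthest from the start, fold enrichment was 10.1, 13.8 and 6.25 for flox controls 1, 2 and 3 and 10.9, 12.2 and 8.82 in Armc5 KO 1, 2 and 3. Flox controls 2 and 3 gave the highest and the lowest of the 6 values, so the Armc5 KO values lay within the flox range. The pileups were 11, 16 and 6 fragments in the flox libraries and 11, 14 and 9 in the KO libraries. For the 6 fragments of flox control 3, counting error alone gave an exact Poisson 95% interval of 2.2 to 13.1, and for the 16 of flox control 2 it was 9.15 to 25.98.

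Intron 9 gave folds of 8.53, 9.798 and 11.04 for flox controls 1, 2 and 3 and of 8.71, 8.68 and 9.97 in Armc5 KO 1, 2 and 3. The third library of each group was the highest, and the groups overlapped. Near intron 6 gave 10.3, 7.73 and 9.88 for the flox libraries and 8.71, 8.15 and 7.32 for Armc5 KO. The Armc5 KO values lay at the lower end, but flox control 2 was below 2 of them. At none of these 4 intervals were the groups apart, while 5.45% of the 55 intervals called in every library had all Armc5 KO values below all flox values and 1.82% had them above.

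**Figure D3:**
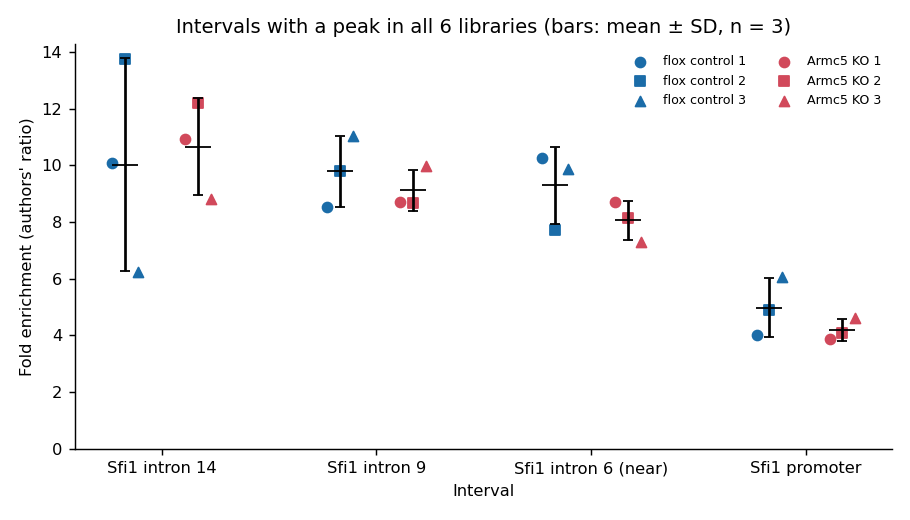
Fold enrichment (authors' ratio) per library at the 4 intervals with a peak in all 6 libraries; points are libraries, black lines the mean ± SD of each group (n = 3). Flox and Armc5 KO values overlap at each of the 4.

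The remaining body intervals lacked 1 or 2 libraries. Gm11400 had folds of 10.1 and 9.63 in flox controls 1 and 2 and 10.4, 11.8 and 7.86 in Armc5 KO 1, 2 and 3, with pileups of 10 to 20 fragments. Armc5 KO values lay on both sides of the flox values. Far intron 7 had 9.42 and 5.999 in flox controls 1 and 2 and 7.01 and 7.11 in Armc5 KO 1 and 2, the Armc5 KO values lying between the flox values.

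At 3 body intervals the groups did not overlap. Intron 10 had folds of 10.1 in each of flox controls 1 and 2 and of 5.55, 9.71 and 6.16 in Armc5 KO 1, 2 and 3. Far intron 6 had 10.3 and 9.18 in flox controls 1 and 2 and 7.18, 8.15 and 6.71 in Armc5 KO. Near intron 7 was the opposite, with 4.99 and 5.77 in flox controls 1 and 2 and 6.78 and 6.49 in Armc5 KO 1 and 2. Among all 72 intervals called in at least 5 libraries, 11.1% were likewise lower in Armc5 KO with no overlap and 4.17% were higher. Among the 84 called in at least 2 libraries of each group, these shares were 13.1% and 4.76%. Of the 8 lower and 3 higher intervals among the 72, only 3 and 1 were among the 55 called in every library. Groups with a missing library separate more easily, and among intervals that lack a library the shares were higher than those given. The summit pileup, which is part of the fold itself, was 19 and 21 fragments at intron 10 for flox controls 1 and 2, 19 for Armc5 KO 2 and 9 for each of Armc5 KO 1 and 3. At far intron 6 it was 19 and 18 in the flox controls and 13, 16 and 10 in Armc5 KO. Armc5 KO 1 and 3, the lowest of the 5 libraries at both intervals, also had the lowest median pileup over the 55 common intervals, and the part of library depth in these differences was not tested.

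The −log10 q-values of the peaks gave the significance of each over its background, which grows with the number of fragments as well as the fold. They ran from 6.13 to 18.4 at the promoter, from 5.15 to 20.2 in intron 14 and from 8.86 to 13.7 in intron 9. The least significant of the 51 peaks was that of flox control 1 in near intron 7, at 2.304, followed by that of Armc5 KO 1 in intron 10, at 2.91. The Fau-ps2 and Eif4enif1 peaks had 4.05 and 3.92. Peaks were 87 to 368 bp wide, the narrowest being that of Armc5 KO 1 in intron 14 and the widest that of flox control 2 in near intron 6.

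Among the intervals with peaks in at least 4 libraries, summits were close together at the promoter and in intron 14 and more scattered in the rest. Over the 6 libraries they spread over 34 bp in intron 14, 67 bp at the promoter, 131 bp in intron 9 and 191 bp in near intron 6. In the intervals with 4 or 5 libraries the spread was 124 bp (near intron 7) to 235 bp (far intron 7). The antisense interval, with a peak in 2 libraries, had summits 56 bp apart. The median spread over the intervals called in all 6 libraries was 34 bp in the whole table, 79 bp in the group at the start of chromosome 9 and 99 bp here. Fold values of 1 interval can therefore come from different bases. In flox control 1 the intron 6 intervals, 205 bp apart, both held 19 fragments on a background of 0.946, and so folds of 10.3. In Armc5 KO 2 both held 16 fragments on a background of 1.09, and so folds of 8.15.

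**Figure D4:**
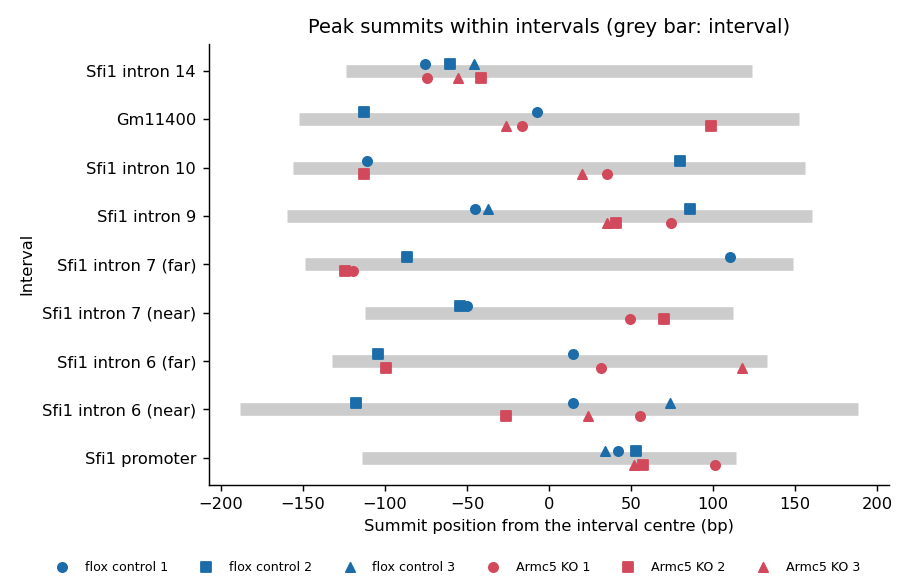
Position of each library's summit from the interval centre (bp) in the 9 intervals with peaks in at least 4 libraries; grey bars are the intervals, colours the groups and symbols the library numbers. Summits lie within 34 bp of each other in intron 14 and spread over 191 bp in near intron 6.

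No interval of the Sfi1 group passed the test of fold enrichment, Armc5 KO against flox control. The fit by limma on log2(fold + 1) over all 55 intervals called in every library called 0 at an adjusted p of 0.05 (0%), with 1 at an unadjusted p under 0.05, which was outside the group. The mean fold at the promoter was 4.98 ± 1.03 for flox controls and 4.18 ± 0.392 for Armc5 KO (SD, 3 libraries each), a log2 difference of -0.19 (SE 0.14, 95% interval -0.52 to 0.13, adjusted p = 0.949 with limma). It was -0.07 without flox control 3 and -0.32 without flox control 1. In near intron 6 it was 9.30 ± 1.37 and 8.06 ± 0.704, a log2 difference of -0.18 (SE 0.17, 95% interval -0.57 to 0.22), which was -0.13 without flox control 3, -0.29 without flox control 2 and -0.11 without flox control 1. Intron 9 had 9.79 ± 1.26 and 9.12 ± 0.735 (log2 difference -0.09, 95% interval -0.48 to 0.30), which was -0.0058 without flox control 3 and -0.17 without flox control 1. Intron 14 had 10.03 ± 3.76 and 10.7 ± 1.72 (log2 difference 0.13, 95% interval -0.52 to 0.78), which turned to -0.14 without flox control 3. These 3 had the same adjusted p of 0.949. Of the 4, 3 were lower in Armc5 KO, as were 37 of the 55, whose median log2 difference was -0.05.

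Intervals that lacked a library gave no call either. Over the 72 intervals called in at least 5 libraries limma again called 0 (0%), with missing values left out. Intron 10 had a log2 difference of -0.48 (SE 0.24, 95% interval -1.03 to 0.06, adjusted p = 0.929), far intron 6 of -0.36 (SE 0.17, 95% interval -0.76 to 0.03, adjusted p = 0.929) and Gm11400 of 0.001 (95% interval -0.50 to 0.50, adjusted p = 0.996), each from 2 flox controls and 3 Armc5 KO libraries. Over the 84 intervals with at least 2 libraries of each group, where the call count was 0 as well, near intron 7 had 0.26 (SE 0.13, 95% interval -0.08 to 0.60, adjusted p = 0.935) and far intron 7 -0.08 (SE 0.23, 95% interval -0.66 to 0.49, adjusted p = 0.985). In this fit the 95% interval of far intron 6 was -0.72 to -0.0045, which leaves out 0, with an adjusted p of 0.935 by limma. For 8 of these 9 intervals the 95% interval reached a log2 difference of at least 0.5 on some side, so it does not exclude a change of that size. The 95% intervals reflect the spread among these libraries. They do not show what size of change the adjusted threshold would have called at any of the 9.

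**Figure D5:**
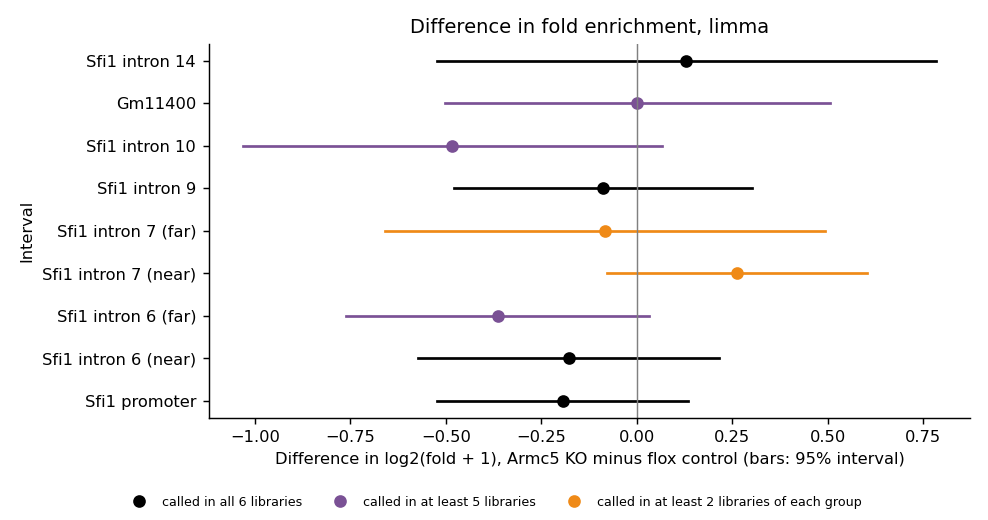
Difference in log2(fold + 1) between Armc5 KO and flox control (horizontal axis, points) with its 95% interval (lines) for the 9 intervals that allow one; colour gives the set of intervals in the limma fit. Each 95% interval drawn includes 0, with differences from -0.48 at intron 10 to 0.26 at near intron 7.

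Pileups, divided by the library median over the 55 common intervals, gave no call either, with 0 of the 55 past an adjusted p of 0.05 by limma (0%) and 0 at an unadjusted p under 0.05. Armc5 KO minus flox control was 0.44 on the log2 scale in intron 14 (SE 0.27), 0.14 in intron 9 (SE 0.27), 0.11 in near intron 6 (SE 0.29) and 0.09 at the promoter (SE 0.25), with an adjusted p of 0.905 for each. Without flox control 3 these were 0.26, 0.32, 0.25 and 0.13, and intron 14 reached 0.65 without flox control 2 (SE 0.26, adjusted p = 0.443 with limma). The sign at the last 3 was opposite to that of the fold. Before division by the library median, the mean pileups at these 3 were lower in Armc5 KO, as the fold was. They were 14.3 fragments for flox controls and 12.7 for Armc5 KO in intron 9, 16.3 and 14.3 in near intron 6, and 45 and 38.7 at the promoter.

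Set beside the rest of the table, 4 of the 12 (33.3%) had a peak in all 6 libraries, against 10 of 17 (58.8%) in the group at the start of chromosome 9 and 41 of 75 (54.7%) among the others. Median fold over all peaks was 8.15 here, 10.2 in the chromosome 9 group and 15.6 among the others, and median pileup 15, 38 and 48 fragments. These differences were not tested, since neighbouring intervals are not replicates.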

How the data were processed

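The submitters' processing notes name cutadapt (4.0), Bowtie2 (2.3.5.1), deepTools (3.5.1), MACS2 (2.2.7.1) and the mm10 build, without saying what each did. The sources used here do not say how insertion sites, duplicates, multiply mapping reads and problem regions were handled. Per the file headers, the authors deposited, for each library's peaks, the fold (a ratio over background within that library), the −log10 p-value and q-value, start, end and summit, with peaks called per library and joined into intervals. The WT columns were taken for the flox samples of the same number, because no title names any other control. Starts and summits were assumed to count from 0, and positions given here count from 1.

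There are no counts or read totals in the file. Pileup and background were solved together from the fold, taken as (pileup + 1)/(background + 1), and the p-value, taken as a Poisson tail. A whole pileup came within 0.005 of the −log10 p for each of the 519 peaks, and for 512 of them (50 of the 51 described) no other whole number did. Exact Poisson 95% intervals cover counting error only. None of the 12 intervals held several peaks of 1 library; elsewhere the highest fold was used. Differences were tested with limma 3.58.1 (R 4.3.3, trend, two-sided) on log2(fold + 1), which understates changes of low folds, with Benjamini-Hochberg adjustment over all intervals tested. No interval was lost to the requirement of a mean fold above 1. The members, lists and tests were chosen with earlier results of these data known. Every interval meeting the rule was described, with protein-coding neighbours within 250 kb and members of the fixed lists. Scripts were tested on simulated data. RefSeq names, spans and promoters are those of GRCm38.p6.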

Additional observations from a re-analysis of the deposited data

How the results depend on the processing

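Over 158 alternative values of the differences at the 9 intervals, 0 passed the adjusted threshold (lowest adjusted p 0.334 with limma), and the sign turned in 14. Called intervals numbered 0 to 1 over left-out libraries, with 1 only when Armc5 KO 3 was missing, and 1 with the replicate block. That call lay outside the Sfi1 group. The labels state no pairing, so the main fit had no block. Same-numbered libraries deviated together with correlations of 0.026, 0.605 and 0.276. Differently numbered libraries were not compared in this way, so these values do not settle whether the numbers pair them. With the block the promoter differed by -0.19 on the log2 scale (adjusted p = 0.687 with limma). Intervals found in 1 group only fell from 3 to 1 with a fold of at least 4 or with at least 2 libraries of a group. Weaker or single peaks are then left out. The 1 left differed, being the Eif4enif1 interval (fold 4.01, flox control 1 alone) by fold and the antisense interval by number of libraries. Over left-out libraries the number ranged from 2 to 3. Intervals called in every library fell from 4 to 3 with a fold of at least 4 and numbered 4 to 7 over left-out libraries, the 7 being without flox control 3. Armc5 KO minus flox control in intervals per library lay between -1.83 and 1.67.

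Gm11400, which had almost no difference, turned to -0.00042 with a pseudocount of 0.1 and to -0.072 with Armc5 KO 1 and 2 averaged, and ranged from -0.12 to 0.15 over left-out libraries. Over left-out libraries intron 14 ranged from -0.14 to 0.37, far intron 7 from -0.37 to 0.20, near intron 7 from 0.17 to 0.35, intron 10 from -0.70 to -0.34, far intron 6 from -0.44 to -0.29, intron 9 from -0.17 to -0.0058, near intron 6 from -0.29 to -0.11 and the promoter from -0.32 to -0.07. Using the local ratio of pileup to background in place of the centred pileup turned the differences at intron 9, near intron 6 and the promoter to -0.018, -0.23 and -0.25, the sign of the fold. With each library left out, the centred pileup ranged from -0.0082 to 0.32, from -0.065 to 0.25 and from -0.033 to 0.19 at these, and from 0.26 to 0.65 in intron 14. The cause was not tested. Averaging Armc5 KO 1 and 2 was tried because their pileups agree within sampling noise, at a chi-square of 0.881 per degree of freedom, while flox control 1 and Armc5 KO 1, from different groups, gave 1.12. Armc5 KO 1 and 3 gave 1.04, and averaging these was not tried. The average of Armc5 KO 1 and 2, the fit with at least 2 libraries of each group and the left-out libraries for pileup were chosen after the data were seen. Counts of 6 to 21 fragments limit every value in the gene body.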
